A study of Mus musculus with 54 samples.

Results

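The comparison described here set acceptor microglia that had shared a culture with alpha-synuclein-loaded donor microglia for 300 min against untreated microglia. The members were chosen by title and group label: 3 acceptor libraries of the 54 in the series, from experiments 1, 2 and 4, and 6 untreated libraries from experiments 1 to 4. All cells were primary microglia of neonatal C57BL/6 mice, pooled from 2 brains per flask, grown for 7 to 10 days in serum-containing medium with L929 cell supernatant and shaken off an astrocyte layer, per the labels' protocols. Acceptors carried a violet dye, CellTracer Violet, given for 15 min, and received no alpha-synuclein of their own. Their donors had been given 1 µM of Atto-488-labelled alpha-synuclein for 14 hours, and both populations were separated by flow cytometry before RNA was collected. The labels do not say whether untreated cells were dyed or sorted, so dye, sorting, co-culture and contact with donors cannot be told apart in this comparison. The replicate number in the titles was taken as the number of an experiment. Experiment 1 was at passage 3, experiment 2 at passage 1, and experiments 3 and 4 at passage 2. Libraries of experiment 4 carry a range of facility numbers apart from that of the other 3 experiments, so values without experiment 4 are also values within 1 such range.

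Microglia are the resident macrophages of the brain. Alpha-synuclein forms the aggregates found in neurons in Parkinson disease, and microglia that take it up can share it with neighbouring microglia through thin membrane tubes. In macrophages, inflammatory stimuli act through the transcription factor NF-kB, oxidative stimuli act through NRF2, and entry into a new cell cycle depends on E2F factors, which drive the genes of the DNA replication machinery.

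The 9 libraries held between 9372418 and 14358778 counts, with a median of 11394089. The ribosomal RNA precursor Rn45s took 16.0 to 22.3% of counts in the libraries of experiment 4 and 4.77 to 13.5% in the others. Untreated libraries that share a number were summed, which left 4 untreated units. Levels are given as CPM, the usual unit of counts scaled to the library total, and log2 changes are fold changes of acceptors over untreated cells fitted by edgeR on the log2 scale, ± their SE. Unless stated otherwise, 4 values stand for untreated cells of experiments 1, 2, 3 and 4, and 3 values for acceptors of experiments 1, 2 and 4. Microglia and macrophage markers summed to 13121, 19312, 12953 and 8271 CPM in untreated cells and to 11701, 13523 and 8450.2 CPM in acceptors, and none of the 14 markers passed the test, against 0.623% of all genes. The sums were lower in acceptors of experiments 1 and 2 and higher in those of experiment 4, and their ranges overlapped. Of the 14 markers, 10 had negative log2 changes, with a median of -0.14. Csf1r, C1qa, C1qb, C1qc and Cd68 were at 888 CPM or more in every unit. Tmem119 and P2ry12, markers of microglia in the brain, stayed between 1.00 and 12.3 CPM.

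At 300 min, Clec5a, Rnf149, Sqstm1 and Lztfl1 rose in acceptors, and Wee1, Exosc10, Tgfbr2, Pcna and Mcm2, Mcm3, Mcm6 and Mcm7 fell. Tgm2, Gpr84, Fas and Icam1 also rose, but none of these 4 passed the test without experiment 4, and Sqstm1, Pcna and the Mcm genes did not pass it either. With the experiment as a block, the quasi-likelihood test of edgeR called 82 genes out of 13169 (0.623%) at a threshold of 0.05 on the Benjamini-Hochberg adjusted p, of which 41 rose (0.311%) and 41 fell (0.311%). Without the block edgeR called 0 genes, the smallest adjusted p being 0.221, and 721 genes (5.47%) had an unadjusted p under 0.05, so every call below rests on the pairing of experiments. A fit of only these 2 groups with the block also called 0, with 1021 genes at an unadjusted p under 0.05, so the calls also rest on a spread estimated over all 14 groups of the series. DESeq2 with the block called 183 genes, 66 higher and 117 lower. Of the 82 genes, 75 moved in the same direction in all 3 experiments, 36 upward and 39 downward. Over all tested genes, 13.9% were higher and 16.7% were lower in all 3 experiments. The 82 genes were called on these same units, so this contrast is no separate support for them.

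The size of the response differed between experiments. Experiment 4 had the largest ratio for 33 of the 41 rises and the largest fall for 25 of the 41 falls. All 3 acceptor units lay above all 4 untreated units for 21 of the 41 rises, against 2.34% of all genes, and below them for 22 of the 41 falls, against 2.92%. These genes were picked by a test on the same units, so larger shares than those of all genes follow from the choice. Refits that left out experiment 1, 2, 3 or 4 called 22, 54, 14 and 10 genes, of which 19, 41, 14 and 8 were among the 82. All 82 genes kept their direction in each of these fits, which share most of their units with the main fit. The genes called in all 4 of them were 3 in number: Rnf149 and Clec5a, which rose, and Exosc10, which fell and was named after its values were seen. Wee1 and Tnip3 were called in 3 of the 4 fits, 14 genes, Tgfbr2 and Lztfl1 among them, in 2, and 29 genes in none.

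**Figure D1:**
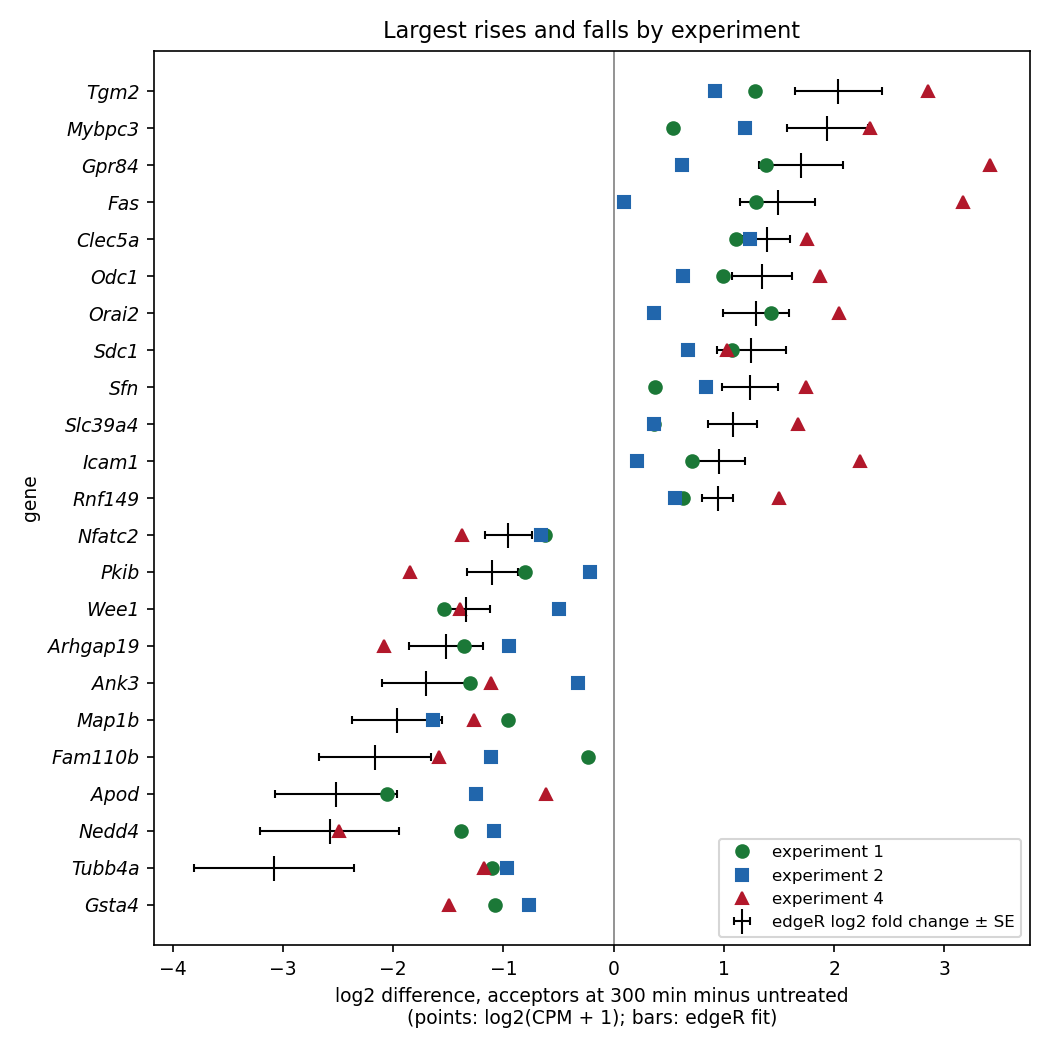
Largest rises and falls among genes that moved one way in all 3 experiments, as the log2 difference of acceptors at 300 min minus untreated cells on the horizontal axis. Coloured points are single experiments (log2 of CPM + 1) and black bars the edgeR log2 change ± SE, left out for Gsta4, which had 2 counts in the acceptors; experiment 4 lies furthest to the right for every rise shown but that of Sdc1.

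Clec5a, a myeloid surface lectin that signals through DAP12, lies at chr6:40574894-40585821 on the minus strand of GRCm38. Its level was 24.3, 29.8, 43.9 and 28.8 CPM in untreated cells and 53.7, 71.4 and 99.6 CPM in acceptors. All acceptor units were above all untreated units, and the log2 change was 1.39 ± 0.21 with an edgeR adjusted p of 4.89e-04. Rnf149, a transmembrane ubiquitin ligase at chr1:39551296-39577405 on the minus strand, stood at 497, 490.2, 639 and 678 CPM in untreated cells and at 771, 723 and 1925 CPM in acceptors. Each acceptor unit exceeded every untreated unit, with experiment 4 far above the others, and the log2 change was 0.94 ± 0.14 (edgeR adjusted p = 4.53e-04). Without experiment 4, Clec5a had a log2 change of 1.03 (edgeR adjusted p = 0.0208) and Rnf149 one of 0.64 (edgeR adjusted p = 0.0283).

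Among genes that rose in all 3 experiments, Tgm2 and Mybpc3 had the largest log2 changes. Tgm2 encodes transglutaminase 2, which crosslinks proteins, and is overlapped on the other strand by Rprd1b. Its level was 1.21, 5.10, 11.5 and 5.81 CPM in untreated cells and 4.38, 10.51 and 48.0 CPM in acceptors, with a log2 change of 2.04 ± 0.40 (edgeR adjusted p = 0.00668). The groups overlapped, because untreated cells of experiment 3 exceeded acceptors of experiments 1 and 2, and without experiment 4 the log2 change was 0.97 (edgeR adjusted p = 0.304). Mybpc3, best known as a sarcomere protein of heart muscle, was at 2.62, 0.785, 1.20 and 1.47 CPM in untreated cells and at 4.28, 3.08 and 11.4 CPM in acceptors. Every acceptor unit was above every untreated unit, at low levels, and the log2 change was 1.94 ± 0.37 (edgeR adjusted p = 0.00494).

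Gpr84, a receptor for medium-chain fatty acids that is induced in activated microglia, stood at 7.77, 5.10, 22.3 and 3.85 CPM against 21.8, 8.37 and 50.6 CPM, with a log2 change of 1.70 ± 0.38 (edgeR adjusted p = 0.0205). Untreated cells of experiment 3 exceeded the acceptors of experiments 1 and 2, and the log2 change of Gpr84 was 0.83 (edgeR adjusted p = 0.282) without experiment 4. Fas, the death receptor, was at 1.82, 4.75, 6.51 and 2.15 CPM against 5.88, 5.13 and 27.2 CPM, and only the acceptors of experiment 4 left the untreated range. The log2 change of Fas was 1.49 ± 0.34 (edgeR adjusted p = 0.0241), and it was 0.53 without experiment 4 (edgeR adjusted p = 0.577). Orai2, a subunit of store-operated calcium channels, was at 5.75, 15.1, 10.6 and 5.66 CPM against 17.1, 19.7 and 26.5 CPM, so that all acceptor units were above all untreated units, with a log2 change of 1.29 ± 0.30 (edgeR adjusted p = 0.0259). Sdc1, the heparan sulphate proteoglycan syndecan-1, was low in all cells, at 1.51, 1.61, 4.37 and 5.13 CPM against 4.28, 3.16 and 11.5 CPM, and had a log2 change of 1.25 ± 0.31 (edgeR adjusted p = 0.0456), with acceptors of experiments 1 and 2 inside the untreated range.

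Odc1, the first enzyme of polyamine synthesis, varied little between untreated units. It stood at 24.5, 25.9, 26.7 and 28.0 CPM in untreated cells and 49.7, 40.6 and 105 CPM in acceptors, with no overlap and a log2 change of 1.34 ± 0.27 (edgeR adjusted p = 0.00965). Sfn, the 14-3-3 protein sigma, was at 8.98, 4.97, 5.31 and 3.77 CPM against 11.98, 9.65 and 15.0 CPM, again without overlap, and had a log2 change of 1.24 ± 0.25 (edgeR adjusted p = 0.00965). Slc39a4, a zinc importer, was at 9.89, 5.41, 5.49 and 4.49 CPM against 13.04, 7.26 and 16.5 CPM, with acceptors of experiment 2 inside the untreated range, and a log2 change of 1.08 ± 0.22 (edgeR adjusted p = 0.0104). Without experiment 4, none of the 12 largest rises other than Clec5a and Rnf149 passed the edgeR test, and Odc1 came nearest, with an adjusted p of 0.0625.

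Among the falls, 39 of 41 were lower in acceptors of each experiment, Wee1 and Exosc10 among them. Wee1, the kinase that holds cells back from mitosis by inhibiting CDK1, lies at chr7:110122046-110143286 on the plus strand, and 1600010M07Rik overlaps it on the other strand. It was at 16.5, 6.45, 12.5 and 13.2 CPM in untreated cells and at 5.03, 4.27 and 4.42 CPM in acceptors, with a log2 change of -1.34 ± 0.22 (edgeR adjusted p = 0.00119). All acceptor units were below all untreated units, and untreated cells of experiment 2 lay closest to them. Exosc10, the nuclear RNase of the RNA exosome, at chr4:148558429-148582401 on the plus strand, was at 35.3, 35.9, 32.7 and 29.3 CPM against 21.6, 26.7 and 18.7 CPM. The groups did not overlap, and the log2 change was -0.61 ± 0.09 (edgeR adjusted p = 4.89e-04). Leaving out experiments 1, 2, 3 or 4 in turn gave Wee1 adjusted p-values of 0.0586, 0.00672, 0.0229 and 0.0372 by edgeR.

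Further genes among the 12 largest falls were regulators expressed in every unit. Arhgap19, a GTPase-activating protein, stood at 68.4, 78.6, 56.7 and 46.6 CPM in untreated cells against 26.1, 40.2 and 10.2 CPM in acceptors, without overlap, and had a log2 change of -1.52 ± 0.34 (edgeR adjusted p = 0.0205). Pkib, an inhibitor of protein kinase A, was at 62.7, 36.9, 56.1 and 95.5 CPM against 35.5, 31.7 and 25.8 CPM, without overlap and with a log2 change of -1.10 ± 0.23 (edgeR adjusted p = 0.0141). Nfatc2, a calcium-regulated transcription factor, was at 30.3, 50.5, 29.1 and 21.9 CPM against 19.4, 31.7 and 7.80 CPM, with acceptors of experiment 2 inside the untreated range, and a log2 change of -0.96 ± 0.21 (edgeR adjusted p = 0.0205). All 3 were lowest in the acceptors of experiment 4.

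Apod and Tubb4a were among the falls of greatest size. Apod, a lipid-binding lipocalin, stood at 4.04, 12.8, 14.2 and 0.528 CPM in untreated cells and 0.214, 4.78 and 0 CPM in acceptors, with a log2 change of -2.52 ± 0.56 (edgeR adjusted p = 0.0205), and acceptors of experiment 2 exceeded untreated cells of experiments 1 and 4. Without experiment 2, the log2 change of Apod was -4.93 (edgeR adjusted p = 0.0115). It was -2.19 without experiment 1 (edgeR adjusted p = 0.269) and -2.07 without experiment 3 (edgeR adjusted p = 0.143), so Apod was not called in these fits. Tubb4a, a tubulin abundant in oligodendrocytes, was at 1.61, 0.959, 8.91 and 2.26 CPM against 0.214, 0 and 0.442 CPM and had a log2 change of -3.08 ± 0.73 (edgeR adjusted p = 0.0289). For Tubb4a the untreated unit of experiment 3 stood apart from the other 3, and the log2 change was -2.99 (edgeR adjusted p = 0.0585) without experiment 3 and -3.74 (edgeR adjusted p = 0.175) without experiment 4.

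Nedd4, a ubiquitin ligase, Map1b, a microtubule-associated protein of neurons, and Ank3, the membrane scaffold ankyrin-G, shared a pattern in untreated cells: their levels were higher in experiments 3 and 4 than in experiments 1 and 2. Nedd4 was at 2.72, 1.48, 22.4 and 20.4 CPM in untreated cells and 0.428, 0.171 and 2.80 CPM in acceptors (log2 change -2.57 ± 0.63, edgeR adjusted p = 0.0405). Map1b was at 3.03, 3.45, 17.4 and 9.54 CPM against 1.07, 0.427 and 3.39 CPM (log2 change -1.97 ± 0.41, edgeR adjusted p = 0.0110). Ank3 was at 2.52, 1.00, 11.7 and 10.4 CPM against 0.428, 0.598 and 4.27 CPM (log2 change -1.70 ± 0.39, edgeR adjusted p = 0.0244). For each of these genes the acceptors of experiment 4 exceeded untreated cells of 1 or more other experiments, so the groups overlapped. Fam110b, a centrosomal protein, was at 1.31, 3.01, 5.40 and 2.22 CPM against 0.962, 0.854 and 0.0736 CPM, with a log2 change of -2.16 ± 0.50 (edgeR adjusted p = 0.0264), and of -1.41 (edgeR adjusted p = 0.282) without experiment 4. Gsta4, a glutathione transferase that removes lipid peroxidation products, had 2 counts in all acceptors and 100 counts in all untreated cells, a ratio of untreated over acceptors of 24.4 with a 95% exact counting interval of 6.58 to 204. Neither Fam110b nor Gsta4 was called when any 1 experiment was left out.

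Markers of other cell types moved with these genes. Astrocyte markers summed to 12.2, 20.9, 109 and 217 CPM in untreated cells and to 8.45, 15.7 and 44.3 CPM in acceptors. The test called 0 of the 13 tested, against 0.623% of all genes, although all 13 had negative log2 changes, with a median of -1.89. Of these 13 markers, 5 were lower in all 3 experiments, against 16.7% of all genes. Their median differences in log2(CPM + 1) were -0.10, -0.12 and -2.07 in experiments 1, 2 and 4. Oligodendrocyte lineage markers summed to 275, 287, 704 and 271 CPM against 169, 163 and 146 CPM, all 10 had negative log2 changes, with a median of -1.93, and 1 passed. Neuron markers summed to 4.04, 4.27, 26.2 and 31.6 CPM against 2.03, 1.11 and 7.36 CPM, and fibroblast and pericyte markers to 2.72, 1.00, 12.8 and 23.9 CPM against 2.14, 1.71 and 5.96 CPM, with no marker called. Each astrocyte, oligodendrocyte and neuron sum was lower in acceptors than in untreated cells of the same experiment, and the astrocyte and neuron sums of untreated cells were largest in experiments 3 and 4.

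Among the defining markers, Gfap was at 0.303, 0.0872, 1.37 and 15.1 CPM in untreated cells and 0, 0 and 2.65 CPM in acceptors, Olig1 at 4.44, 6.498, 84.9 and 75.3 CPM against 1.497, 1.71 and 12.7 CPM, and Mog at 1.61, 0.785, 7.03 and 0.226 CPM against 0 in every acceptor unit. Other members of these lists changed less, such as Mbp (log2 change -0.23 ± 0.14, edgeR adjusted p = 0.504) and Aldh1l1 (-0.16 ± 0.34, edgeR adjusted p = 0.899). In bulk RNA, fewer cells of a type and less RNA per cell cannot be told apart. The part of these cells in the falls of Tubb4a, Apod, Nedd4, Map1b, Ank3, Fam110b and Gsta4 was not tested. Of the remaining marker lists, 0 of 4 endothelial, 0 of 5 border macrophage and monocyte, and 0 of 1 other leukocyte markers tested passed, against 0.623% of all genes. Their summed levels overlapped between groups, and 0 calls in lists this short do not show unchanged levels.

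**Figure D2:**
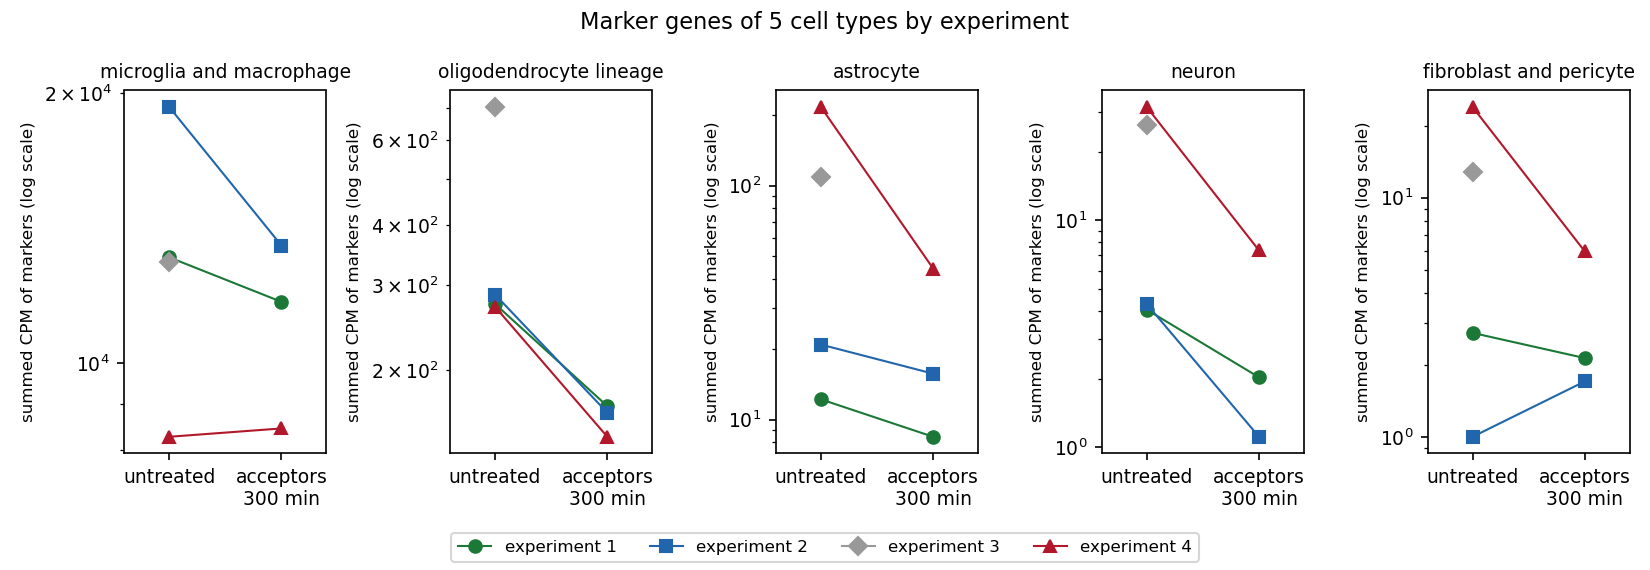
Summed CPM of the markers of 5 cell types (log scale) in untreated cells and in acceptors at 300 min, with a line for each experiment that has both. Oligodendrocyte lineage, astrocyte and neuron sums were lower in the acceptors of all 3 experiments, whereas the microglia and macrophage sums of the groups overlapped.

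Of the 35 DNA replication genes tested, 5 fell at an adjusted p under 0.05 by edgeR, against 0.311% of all genes, and 0 rose. Values were lower in all 3 experiments for 13 of the 35, against 16.7% of all genes, and 33 had negative log2 changes. Their median log2 change was -0.57, against -0.02 over all tested genes. The median difference was -0.54, 0.23 and -0.71 in experiments 1, 2 and 4, so most members were not lower in experiment 2. The called genes were Mcm2, Mcm3, Mcm6 and Mcm7, all subunits of the MCM2-7 helicase that opens DNA at replication origins, and Pcna, the sliding clamp of the DNA polymerases.

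Sequence around the start sites of these genes is shown because they fell together and because replication genes are known E2F targets. The bases are from RefSeq on GRCm38.p6, read 5′ to 3′ along the minus strand, on which all 3 genes lie, and matches to the E2F-type motif TTTNGCGC on either strand are in capitals. The Mcm6 stretch covers the 250 bases before the start site (chr1:128359706-128359955), the Mcm7 stretch runs from 250 bases before to 30 bases after it (chr5:138171854-138172133), and the Mcm3 stretch is 30 bases within the start of the transcript (chr1:20820263-20820292).
Mcm6: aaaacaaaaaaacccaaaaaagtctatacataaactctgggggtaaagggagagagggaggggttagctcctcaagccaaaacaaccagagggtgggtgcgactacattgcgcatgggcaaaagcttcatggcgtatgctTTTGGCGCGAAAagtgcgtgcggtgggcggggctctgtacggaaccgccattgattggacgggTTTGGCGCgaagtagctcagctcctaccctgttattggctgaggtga
Mcm7: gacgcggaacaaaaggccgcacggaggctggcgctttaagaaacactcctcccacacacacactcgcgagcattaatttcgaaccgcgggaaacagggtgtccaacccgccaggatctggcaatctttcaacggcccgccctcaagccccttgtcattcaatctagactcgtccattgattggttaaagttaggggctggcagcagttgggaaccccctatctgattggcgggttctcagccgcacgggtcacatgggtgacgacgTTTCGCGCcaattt
Mcm3: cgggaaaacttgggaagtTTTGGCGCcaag
The window searched was 250 bases before to 50 after each start site. Mcm6 held 3 matches, 2 of them overlapping, and Mcm3 held 1, while the windows of Mcm2 and Pcna held 0. Mcm7 has 2 listed start sites: the window of the one shown held 1 match, and that of the other (chr5:138171217-138171516) held 0. Of the 27 replication genes with a promoter in the table, 10 (37%) held the motif, against 1.57% of 27025 genes and 452 of 32851 promoters (1.38%). A match is a string of letters, and binding was not measured.

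Mcm3 was at 91.8, 37.2, 66.1 and 76.2 CPM in untreated cells and 53.0, 30.7 and 40.8 CPM in acceptors, with a log2 change of -0.75 ± 0.14 (edgeR adjusted p = 0.00494). Mcm2 was at 27.3, 9.55, 24.2 and 23.9 CPM against 11.9, 9.31 and 9.20 CPM, with a log2 change of -0.95 ± 0.22 (edgeR adjusted p = 0.0231). In both genes, untreated cells of experiment 2 lay among the acceptors, so the groups overlapped. Mcm7 showed the same order, at 63.1, 22.1, 45.1 and 67.7 CPM against 42.4, 21.0 and 30.9 CPM (log2 change -0.74 ± 0.17, edgeR adjusted p = 0.0235); Cops6 and Ap4m1 overlap it on the other strand, and use of strand in counting is not given in the sources used here. Mcm6 was at 119, 82.1, 92.0 and 82.6 CPM against 77.9, 65.0 and 59.0 CPM, without overlap, and had a log2 change of -0.44 ± 0.10 (edgeR adjusted p = 0.0205). Pcna was at 407, 315, 421 and 319.7 CPM against 223, 263.8 and 237.7 CPM, also without overlap, with a log2 change of -0.57 ± 0.14 (edgeR adjusted p = 0.0449). Without experiment 4 the adjusted p of these 5 genes ranged from 0.105 for Mcm6 to 0.233 for Mcm2 and Mcm7 by edgeR, and none of them was called without experiment 1, 3 or 4. Without experiment 2, Mcm2, Mcm3 and Mcm7 were still called.

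Replication genes that did not pass included the remaining MCM subunits Mcm4, at 36.8, 15.3, 27.7 and 29.0 CPM against 20.3, 14.9 and 18.1 CPM (edgeR adjusted p = 0.203), and Mcm5, at 44.6, 13.5, 35.4 and 30.9 CPM against 28.7, 18.4 and 14.3 CPM (edgeR adjusted p = 0.378). Cdc6, which loads the helicase, was at 8.48, 1.44, 5.49 and 6.64 CPM against 3.64, 1.54 and 2.14 CPM (edgeR adjusted p = 0.167). Mcm4, Mcm5 and Cdc6 were named after their values were seen, and in all 3 the lowest untreated value was that of experiment 2. Mitosis genes, such as cyclins, kinesins and spindle kinases, had 0 of 32 called, against 0.623% of all genes. Their median log2 change was -0.52, 31 of the 32 values were negative, and the medians in experiments 1, 2 and 4 were -0.35, 0.15 and -0.73. Tpx2, a spindle assembly factor, came nearest to the threshold (log2 change -0.60 ± 0.18, edgeR adjusted p = 0.1002), followed by cyclin A2, Ccna2 (-0.71 ± 0.28, edgeR adjusted p = 0.238). Cdkn1a, the CDK inhibitor p21, which was named after its values were seen, rose from 618, 1286, 517 and 367 CPM to 1297, 1509 and 791 CPM, higher in all 3 experiments but with overlapping ranges (log2 change 0.77 ± 0.16, edgeR adjusted p = 0.0120).

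**Figure D3:**
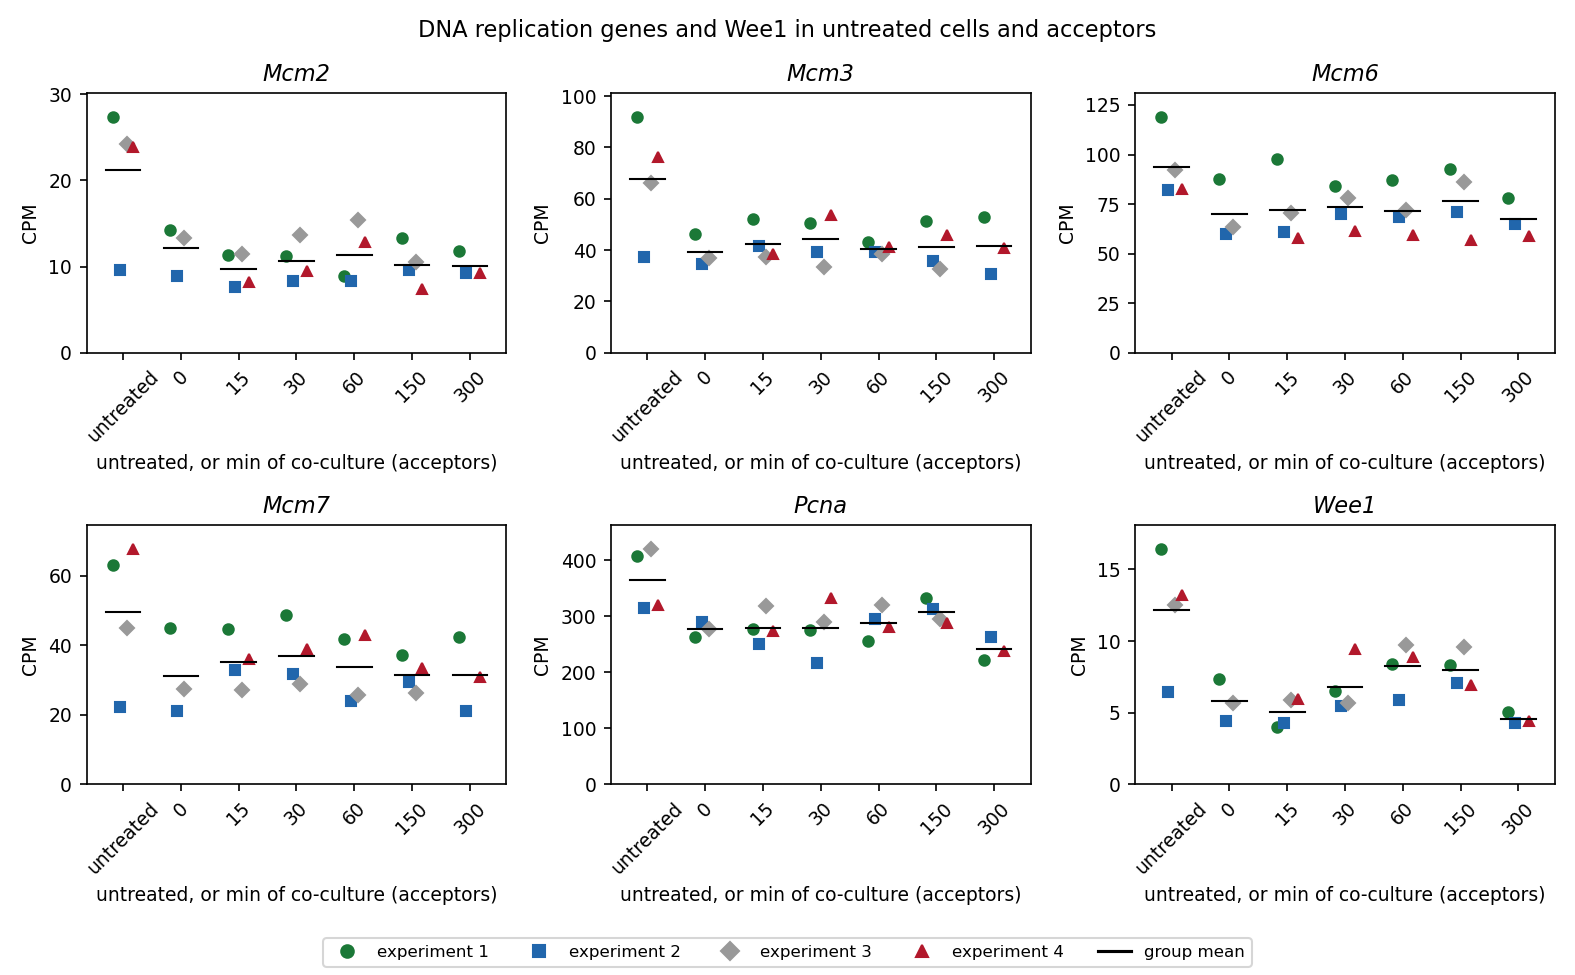
CPM of 5 called DNA replication genes and Wee1 in untreated cells and in acceptors by minutes of co-culture, with a point per experiment and a line at the group mean. Acceptors of every time had lower group means than untreated cells in each of the 6 panels, and untreated cells of experiment 2 lay near the acceptors for Mcm2, Mcm3 and Mcm7.

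NF-kB target genes had the highest median of the 25 lists and the widest spread of medians between experiments. Of 50 tested, 2 rose by edgeR, Icam1 and Lcn2, against 0.311% of all genes, and 0 fell. The median log2 change was 0.54 and 40 of 50 values were positive. In experiments 1, 2 and 4 the median differences were 0.31, -0.14 and 1.80, and the median without experiment 4 was 0.12. In acceptors at 150 min against the same untreated cells, 17 of the 50 targets rose by edgeR and 1 fell. The median log2 change of the 50 was 0.71 at 150 min, against -0.03 over all tested genes. Icam1, the adhesion molecule that binds leukocyte integrins, was at 42.7, 74.01, 68.2 and 24.9 CPM in untreated cells and 70.6, 86.0 and 121 CPM in acceptors. Its groups overlapped, the log2 change was 0.96 ± 0.24 (edgeR adjusted p = 0.0427), and it was 0.24 without experiment 4 (edgeR adjusted p = 0.723). Lcn2, the iron-siderophore binding protein lipocalin-2, was at 0, 0.0872, 0.600 and 1.21 CPM against 0.214, 0 and 25.3 CPM, so that its rise (log2 change 3.74 ± 0.83, edgeR adjusted p = 0.0205) came from the acceptors of experiment 4. Without experiment 4, Lcn2 had an edgeR adjusted p of 0.910.

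The same split appeared in cytokines and chemokines of this list that did not pass. Il1b, interleukin 1 beta, was at 14.03, 65.3, 13.6 and 23.3 CPM in untreated cells and 33.0, 51.0 and 521 CPM in acceptors (edgeR adjusted p = 0.367). Cxcl2, a neutrophil chemokine, was at 42.3, 61.5, 82.5 and 10.1 CPM against 76.9, 98.6 and 368 CPM (edgeR adjusted p = 0.248), and Acod1, the enzyme that makes itaconate, at 6.16, 92.9, 39.3 and 10.8 CPM against 31.4, 70.5 and 619 CPM (edgeR adjusted p = 0.139). In all 3 genes the acceptors of experiment 4 were several times above every other unit, while acceptors of experiments 1 and 2 lay within or near the untreated range. Il12b, a subunit of interleukins 12 and 23, was at 0, 0, 0 and 0.264 CPM against 0, 0.171 and 7.58 CPM (edgeR adjusted p = 0.0596). Il1b, Cxcl2 and Acod1 were named after their values were seen.

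NRF2 and antioxidant genes had 3 rises and 1 fall, Gsta4, among 42 tested, against 0.311% of all genes in each direction, with a median log2 change of 0.19 and medians of -0.03, 0.19 and 0.46 in experiments 1, 2 and 4. Sqstm1, the selective autophagy receptor p62 and an NRF2 target, was at 507, 698, 463 and 525 CPM in untreated cells and 721, 849.7 and 1786 CPM in acceptors. Acceptors of each experiment exceeded every untreated unit, and the log2 change was 0.94 ± 0.17 (edgeR adjusted p = 0.00414). Mrnip overlaps Sqstm1 on the other strand. Slc7a11, the cystine importer, was at 2.93, 1.70, 6.34 and 5.47 CPM against 9.62, 1.54 and 97.2 CPM (log2 change 2.52 ± 0.45, edgeR adjusted p = 0.00333), with acceptors of experiment 2 below their untreated partner and those of experiment 4 far above all units. Esd, an esterase, was at 473, 282, 364 and 374 CPM against 643, 403 and 929 CPM, higher in all 3 experiments with overlapping ranges, and with a log2 change of 0.79 ± 0.18 (edgeR adjusted p = 0.0231). Without experiment 4 the log2 changes were 0.59 for Sqstm1 (edgeR adjusted p = 0.251), 1.67 for Slc7a11 (edgeR adjusted p = 0.185, and 3.20 without experiment 2) and 0.65 for Esd (edgeR adjusted p = 0.247).

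Of the 34 autophagy genes tested, 3 rose, against 0.311% of all genes, and 0 fell, with a median log2 change of 0.10, and the medians of experiments 1, 2 and 4 lay close together, at 0.10, 0.10 and 0.13. Besides Sqstm1 these were Atg12, which is conjugated to Atg5 in autophagosome formation, and Tax1bp1, a receptor for ubiquitinated cargo. Atg12 was at 64.0, 84.7, 55.4 and 71.8 CPM in untreated cells and 92.9, 99.2 and 103 CPM in acceptors, without overlap, and had a log2 change of 0.48 ± 0.11 (edgeR adjusted p = 0.0231). Tax1bp1 was at 118, 112, 113 and 157 CPM against 168, 139 and 248.6 CPM, with a log2 change of 0.47 ± 0.11 (edgeR adjusted p = 0.0261). Untreated cells of experiment 4 were higher than acceptors of experiment 2 for Tax1bp1, so its ranges overlapped. Map1lc3b, the autophagosome membrane protein LC3B, which was named after its values were seen, did not pass, at 264.1, 241.5, 219 and 205 CPM against 284, 287 and 274 CPM (edgeR adjusted p = 0.129).

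Genes of the TGF-beta pathway, which keeps microglia in a resting state, had 1 rise and 1 fall among 31 tested, against 0.311% of all genes in each direction, with a median log2 change of 0.00. Tgfbr2, the ligand-binding receptor, was at 172, 129.8, 144 and 101 CPM in untreated cells and 91.0, 84.7 and 61.4 CPM in acceptors. All acceptor units were below all untreated units, with a log2 change of -0.69 ± 0.13 (edgeR adjusted p = 0.00668), and it was -0.65 without experiment 4 (edgeR adjusted p = 0.0283). Tgfbr2 was also called without experiment 3, but not without experiment 1 and not without experiment 2. Skil, the SMAD-binding repressor SnoN, was at 22.8, 60.4, 39.5 and 30.3 CPM against 58.0, 59.1 and 97.6 CPM, with a log2 change of 0.86 ± 0.21 (edgeR adjusted p = 0.0442), and acceptors of experiment 2 did not exceed their untreated partner. Bmp8a, a ligand of the family, had 27 counts in acceptors and 2 in untreated cells, a ratio of 27.7 with a 95% exact counting interval of 6.96 to 240.2, and did not pass (edgeR adjusted p = 0.0725).

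Glucocorticoid-responsive genes had 1 of 18 called, a rise, against 0.311% of all genes. Cebpd, a C/EBP transcription factor, rose from 37.5, 54.8, 41.7 and 23.6 CPM in untreated cells to 47.6, 77.2 and 64.6 CPM in acceptors, higher in all 3 experiments with overlapping ranges, and a log2 change of 0.70 ± 0.15 (edgeR adjusted p = 0.0167). Il1r2, the decoy receptor for interleukin 1, had 16 counts in acceptors and 1 in untreated cells, a ratio of 32.8 with a 95% exact counting interval of 5.10 to 1376, and an edgeR adjusted p of 0.132. Machinery of tunnelling nanotubes and filopodia, the membrane protrusions through which cells can exchange cargo, had 1 of 46 called, also a rise against the same background, and a median of -0.05. This gene was Ezr, encoding ezrin, which links the membrane to actin, at 20.5, 11.3, 20.6 and 26.4 CPM against 26.7, 17.4 and 78.3 CPM (log2 change 0.92 ± 0.23, edgeR adjusted p = 0.0456). Acceptors of experiment 4 were far above all units, Sytl3 overlaps Ezr on the other strand, and without experiment 4 the log2 change was 0.49 (edgeR adjusted p = 0.509). Rala (0.30 ± 0.09, edgeR adjusted p = 0.119) and Vasp (0.57 ± 0.18, edgeR adjusted p = 0.151) of the same list did not pass.

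**Figure D4:**
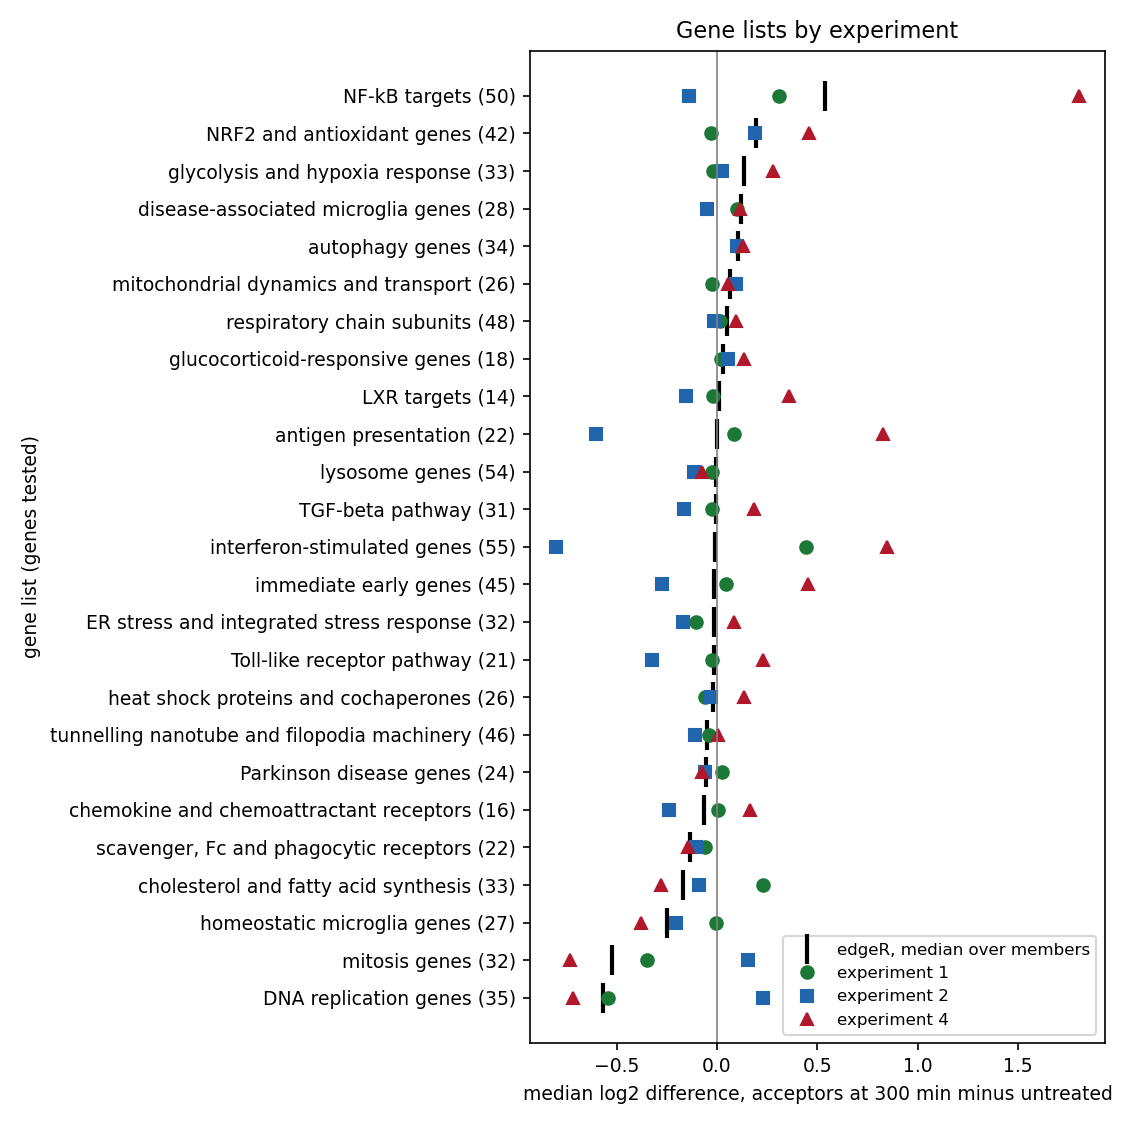
Median log2 difference of acceptors at 300 min minus untreated cells over the members of 25 gene lists, with the edgeR median as a bar and each experiment as a point. NF-kB targets spread from -0.14 in experiment 2 to 1.80 in experiment 4, whereas the points of autophagy genes and respiratory chain subunits lie close together.

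The other 18 of the 25 lists, mitosis genes among them, had no called gene, against 0.623% of all genes. Interferon-stimulated genes had a median of -0.01 over 55 genes, and their medians in experiments 1, 2 and 4 were 0.44, -0.80 and 0.84, with opposite signs. Mx2, an antiviral GTPase, showed this split at 17.0, 78.8, 26.8 and 11.2 CPM in untreated cells and 44.8, 60.3 and 32.4 CPM in acceptors (edgeR adjusted p = 0.649). Antigen presentation genes were also lowest in experiment 2, with a median of 0.00 over 22 genes and 0.09, -0.60 and 0.83 by experiment, and H2-D1, a classical MHC class I gene, stood at 1418, 4114, 1514 and 1114 CPM against 1383, 3329 and 1820.4 CPM (edgeR adjusted p = 0.777). Immediate early genes had a median of -0.01 over 45, and the 3 members with the smallest p had log2 changes of both signs. Klf4, a transcription factor, was at 5.05, 4.32, 2.66 and 9.76 CPM against 14.1, 10.3 and 13.8 CPM (log2 change 1.14 ± 0.35, edgeR adjusted p = 0.125), and Btg1, an antiproliferative factor, at 182, 245.97, 162 and 256.8 CPM against 231.5, 235.99 and 565 CPM (log2 change 0.54 ± 0.18, edgeR adjusted p = 0.156). Myc, a transcription factor of growth and proliferation, was at 7.37, 2.40, 9.43 and 3.62 CPM against 3.74, 1.03 and 1.69 CPM, lower in each experiment (log2 change -1.33 ± 0.49, edgeR adjusted p = 0.212).

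Homeostatic microglia genes had a median of -0.25 over 27, 19 of them negative. Adgrg1, an adhesion receptor, was at 0.606, 0.741, 10.97 and 9.05 CPM in untreated cells and 0.214, 0.171 and 1.77 CPM in acceptors (edgeR adjusted p = 0.187), and Sparc, a matrix protein also made by astrocytes, was at 3.83, 2.05, 12.9 and 22.1 CPM against 0.321, 1.79 and 4.05 CPM (edgeR adjusted p = 0.146). Both Adgrg1 and Sparc were highest in untreated cells of experiments 3 and 4, as were the astrocyte markers, whose part in these values was not tested. Golm1, a Golgi membrane protein overlapped on the other strand by Naa35, went the other way, at 17.9, 15.3, 20.9 and 24.8 CPM against 30.5, 26.4 and 25.7 CPM, with all acceptor units above all untreated units, and did not pass (log2 change 0.52 ± 0.21, edgeR adjusted p = 0.239). Disease-associated microglia genes had a median of 0.12 over 28. Ctsl, the protease cathepsin L, did not pass (log2 change 0.47 ± 0.14, edgeR adjusted p = 0.113), nor did Axl, a receptor kinase (log2 change -0.44 ± 0.25, edgeR adjusted p = 0.471), and Spp1, osteopontin, was at 2715, 3868, 4953 and 2938 CPM against 4265, 4241 and 4796 CPM (edgeR adjusted p = 0.476). Toll-like receptor pathway genes had a median of -0.02 over 21, and their co-receptor Cd14 came near the threshold (log2 change 0.90 ± 0.25, edgeR adjusted p = 0.0831), at 840.0, 925, 894 and 409 CPM against 1041, 1173 and 2073 CPM. All acceptor units of Cd14 were above all untreated units. Chemokine and chemoattractant receptors had a median of -0.06 over 16, and scavenger, Fc and phagocytic receptors one of -0.14 over 22.

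Lysosome genes had a median of 0.00 over 54. Sgsh, a sulphatase of heparan sulphate breakdown, was at 26.0, 25.9, 23.4 and 22.9 CPM in untreated cells and 10.8, 15.0 and 7.66 CPM in acceptors, without overlap, and did not pass (log2 change -1.09 ± 0.31, edgeR adjusted p = 0.0904). Ppt1, a lysosomal thioesterase, did not pass either (log2 change -0.31 ± 0.09, edgeR adjusted p = 0.0935). Median log2 changes were 0.05 for 48 respiratory chain subunits, 0.07 for 26 genes of mitochondrial dynamics and transport, 0.13 for 33 genes of glycolysis and the hypoxia response, and -0.17 for 33 genes of cholesterol and fatty acid synthesis. Liver X receptor (LXR) targets had a median of 0.01 over 14, heat shock proteins and cochaperones one of -0.02 over 26, genes of ER stress and the integrated stress response one of -0.02 over 32, and Parkinson disease genes one of -0.05 over 24. Hspb8, a small heat shock protein, had 3 counts in acceptors and 105 in untreated cells, a ratio of untreated over acceptors of 17.1 with a 95% exact counting interval of 5.68 to 84.1 (edgeR adjusted p = 0.0684).

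The called genes outside the lists and outside the 24 largest changes were 20 rises, with log2 changes from 0.43 to 0.90, and 23 falls, from -1.19 to -0.48. The following were named after their values were seen. Tnip3, an inhibitor of NF-kB signalling, was at 61.5, 55.3, 76.8 and 31.4 CPM in untreated cells and 85.2, 87.2 and 128 CPM in acceptors, without overlap (log2 change 0.90 ± 0.16, edgeR adjusted p = 0.00333). Csf2rb and Csf2rb2, the near-identical beta chains of the receptors for GM-CSF and interleukin 3, between which reads may be divided, were at 199, 164 and 401 CPM and 199, 238.5 and 263 CPM in acceptors. Untreated cells had 135, 139.6, 136 and 109 CPM of Csf2rb and 156, 197, 117 and 116 CPM of Csf2rb2 (without overlap, log2 changes 0.90 ± 0.19 and 0.70 ± 0.17, edgeR adjusted p = 0.0128 and 0.0344). Lztfl1, a regulator of ciliary protein traffic overlapped on the other strand by Ccr9, was even across experiments, at 15.4, 16.5, 13.8 and 15.0 CPM against 27.2, 28.2 and 24.0 CPM (log2 change 0.81 ± 0.15, edgeR adjusted p = 0.00414). It was called without experiment 1 and without experiment 4, but not without experiment 2 or experiment 3. Oga, which removes O-GlcNAc from proteins, was at 78.3, 84.0, 59.4 and 113 CPM against 131, 101 and 169.8 CPM (log2 change 0.58 ± 0.11, edgeR adjusted p = 0.00414). Fam177a and Fam177a2 are listed with identical values, so the 82 calls hold this signal under both names.

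Falls outside the lists included H2ax. This gene, which encodes the histone variant phosphorylated at DNA breaks, was at 31.9, 18.2, 31.7 and 29.2 CPM in untreated cells and 18.5, 13.9 and 15.2 CPM in acceptors (log2 change -0.79 ± 0.15, edgeR adjusted p = 0.00668). Rfc2, a subunit of the complex that loads Pcna, was at 33.9, 33.4, 34.0 and 28.5 CPM against 22.03, 25.9 and 19.1 CPM, without overlap (log2 change -0.49 ± 0.11, edgeR adjusted p = 0.0231). Tmpo, a protein of the inner nuclear membrane, had a log2 change of -0.56 ± 0.13 (edgeR adjusted p = 0.0264). Cotl1, an actin-binding protein, was at 554, 611, 824 and 589.6 CPM against 396, 445 and 362 CPM, without overlap (log2 change -0.57 ± 0.12, edgeR adjusted p = 0.00965), and Epb41, the membrane skeleton protein 4.1, was at 202, 116, 168 and 201 CPM against 128, 94.9 and 96.3 CPM (log2 change -0.74 ± 0.15, edgeR adjusted p = 0.00722). Celf2, an RNA-binding splicing regulator, was at 472, 686, 436 and 487 CPM against 382, 512 and 273 CPM (log2 change -0.48 ± 0.12, edgeR adjusted p = 0.0457).

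Other called genes showed no overlap between the groups. Fnip2, a partner of folliculin in nutrient sensing, was at 151, 135, 141 and 149.7 CPM in untreated cells and 71.6, 75.96 and 104 CPM in acceptors (log2 change -0.87 ± 0.20, edgeR adjusted p = 0.0235). Snx8, an endosomal sorting nexin, stood at 204, 292, 212 and 204 CPM against 126, 178 and 92.3 CPM (log2 change -0.79 ± 0.16, edgeR adjusted p = 0.00980). Cblb, a ubiquitin ligase that restrains receptor signalling, was at 29.5, 35.3, 25.6 and 30.5 CPM against 15.6, 23.8 and 14.6 CPM (log2 change -0.83 ± 0.19, edgeR adjusted p = 0.0271). All acceptor units of these 3 genes were below all untreated units. The transcription factors Etv5, of the ETS family, and Mnt, a partner of MAX, also fell. Etv5 was at 58.3, 41.6, 69.6 and 57.9 CPM against 37.1, 31.5 and 22.6 CPM (log2 change -0.87 ± 0.21, edgeR adjusted p = 0.0321), and Mnt at 45.9, 40.6, 38.8 and 50.0 CPM against 29.2, 28.7 and 33.9 CPM (log2 change -0.53 ± 0.13, edgeR adjusted p = 0.0463). Neither Etv5 nor Mnt overlapped between groups.

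Rises without overlap included Zc3h12c, an RNase of the regnase family, at 20.4, 14.3, 27.8 and 13.4 CPM in untreated cells and 35.3, 27.9 and 44.99 CPM in acceptors (log2 change 0.86 ± 0.21, edgeR adjusted p = 0.0448). Ptpn12, a tyrosine phosphatase of adhesion signalling, was at 67.2, 66.0, 66.4 and 76.3 CPM against 84.3, 76.5 and 170.1 CPM (log2 change 0.58 ± 0.13, edgeR adjusted p = 0.0168), where acceptors of experiment 2 only just exceeded the highest untreated unit. Mgat4a, an enzyme of N-glycan branching, was at 18.6, 25.6, 24.7 and 23.4 CPM against 32.9, 33.7 and 34.8 CPM (log2 change 0.51 ± 0.11, edgeR adjusted p = 0.0205), and Gxylt1, which adds xylose to sugars on Notch, at 40.9, 37.2, 30.0 and 41.7 CPM against 53.1, 50.8 and 56.9 CPM (log2 change 0.50 ± 0.12, edgeR adjusted p = 0.0414). The acceptor values of Mgat4a and of Gxylt1 lay close together in the 3 experiments. These genes, too, were named after their values were seen.

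Earlier acceptors were used to ask whether these levels were particular to 300 min. Against the 4 acceptor libraries at 150 min, edgeR called 1 of 13169 genes (0.00759%), and 710 genes (5.39%) had an unadjusted p under 0.05. This gene was Srgap2, a regulator of membrane protrusion named after its values were seen, at 89.6, 94.2 and 86.1 CPM at 300 min and 46.8, 57.2, 53.2 and 46.6 CPM at 150 min in experiments 1 to 4, with no overlap (log2 change 0.83 ± 0.14, edgeR adjusted p = 0.00754). Without the block edgeR called 0 genes there, with 270 (2.05%) at an unadjusted p under 0.05, and none was called when any 1 experiment was left out. Against the 3 acceptor libraries at 0 min, which come from experiments 1, 2 and 3, edgeR called 0 genes with the block and 0 without, with 690 (5.24%) and 378 (2.87%) at an unadjusted p under 0.05, and DESeq2 called 5. None of the 82 genes was called in either comparison, which does not show that their levels were the same. In acceptors at 0 min against the same untreated cells, edgeR called Rnf149 (log2 change 0.69, adjusted p = 0.0116), Sfn (1.04, adjusted p = 0.0317), Wee1 (-0.97, adjusted p = 0.0214) and Map1b (-1.81, adjusted p = 0.0207). The other largest rises and falls described above were not called at 0 min. In acceptors at 150 min against these untreated cells, edgeR called all of the 12 largest rises but Sdc1. Tgm2 (log2 change 2.36, adjusted p = 1.51e-04) and Rnf149 (1.13, adjusted p = 1.10e-06) were among them. Of the 12 largest falls, it called all but Wee1, Nedd4 and Gsta4 at 150 min, such as Apod (-1.81, adjusted p = 0.0192).

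Group means by time give the course of the genes named above as a description. Wee1 was at 12.2 ± 4.17 CPM (mean ± SD, n = 4) in untreated cells, 5.81 ± 1.45 CPM (n = 3) in acceptors at 0 min, 7.98 ± 1.22 CPM (n = 4) at 150 min and 4.57 ± 0.400 CPM (n = 3) at 300 min. The 300 min value had the smallest spread of these groups. Mcm3 was at 67.8 ± 23.02 CPM in untreated cells, 39.3 ± 6.11 CPM at 0 min, 41.4 ± 8.77 CPM at 150 min and 41.5 ± 11.2 CPM at 300 min, so its level in acceptors differed by less than the spread between experiments.

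Among the rises, Clec5a was at 50.2 ± 8.31 CPM in acceptors at 0 min, 52.5 ± 21.2 CPM at 150 min and 74.9 ± 23.2 CPM at 300 min, against 31.7 ± 8.47 CPM in untreated cells. Rnf149 was at 839 ± 109 CPM at 0 min, 1319.6 ± 572 CPM at 150 min and 1139.8 ± 681 CPM at 300 min, against 576 ± 96.6 CPM in untreated cells. The spread of Rnf149 at 150 and 300 min was several times that at 0 min, where experiment 4 has no library. Tgfbr2 was at 94.4 ± 21.0 CPM at 0 min, 98.4 ± 12.7 CPM at 150 min and 79.02 ± 15.6 CPM at 300 min, against 137 ± 29.7 CPM in untreated cells. Skil had its highest mean at 150 min, 117 ± 48.5 CPM, and was at 71.5 ± 22.5 CPM at 300 min; the edgeR adjusted p of that difference was 0.610.

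**Figure D5:**
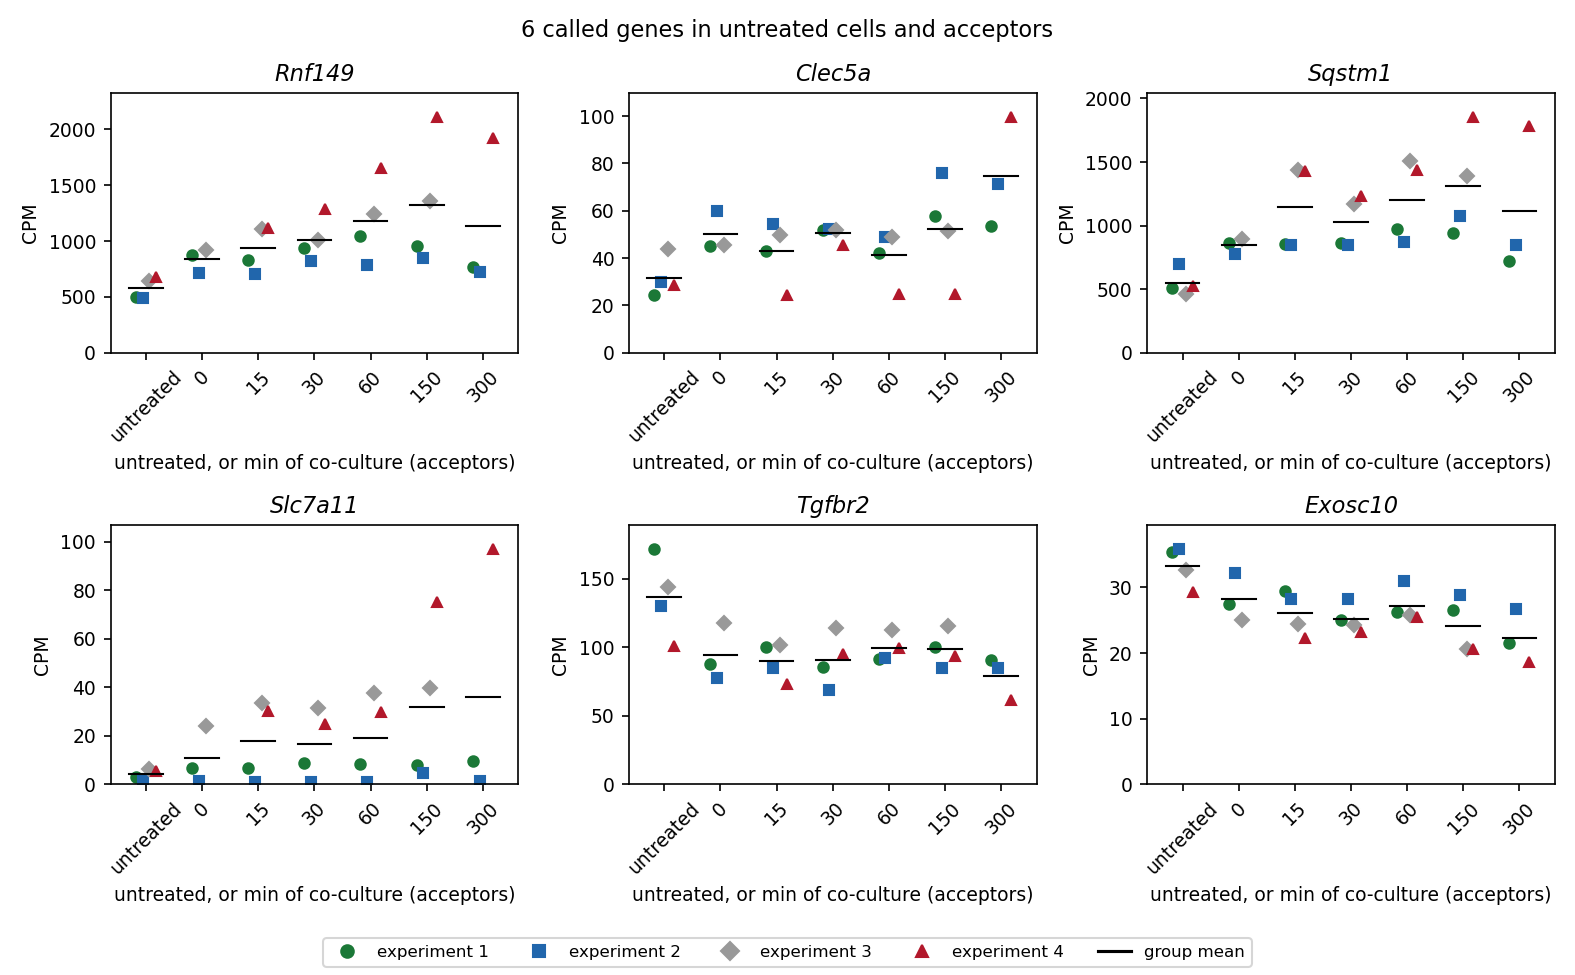
CPM of 6 called genes in untreated cells and in acceptors by minutes of co-culture, with a point per experiment and a line at the group mean. For Rnf149, Sqstm1 and Slc7a11 the points of experiment 4 at 150 and 300 min lie above all others, while Tgfbr2 and Exosc10 stay below their untreated means at every time.

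Donors sorted from the co-cultures at 300 min (4 libraries) were compared with the acceptors of that time. The edgeR test with the block called 182 of 13169 genes (1.38%), 126 higher (0.957%) and 56 lower (0.425%) in donors. Without the block it called 4 (0.0304%). Among the genes named by rule, 6 differed between donors and acceptors. Tgm2 had a log2 difference of 1.80 (edgeR adjusted p = 0.00825), Lcn2 of 4.40 (edgeR adjusted p = 2.77e-04) and Marco, a scavenger receptor that did not pass against untreated cells, of 2.91 (edgeR adjusted p = 0.00289). In donors of experiments 1 to 4, Lcn2 was at 0.957, 0.988, 12.997 and 565 CPM, so its difference leaned on donors of experiment 4. Marco was at 14.3, 9.42, 262.6 and 134 CPM in these donors and at 4.38, 1.03 and 9.35 CPM in acceptors. Its highest value was that of experiment 3, which has no acceptor library at 300 min. Chac1, which breaks down glutathione in the integrated stress response, differed by 1.35 (edgeR adjusted p = 0.0196). Mcm6 and Ccna2 were lower in donors, by -0.46 and -1.32 on the log2 scale (edgeR adjusted p = 0.00805 and 0.00825). Of the called genes outside the rule, Exosc10, low in acceptors, was higher in donors by 0.53 (edgeR adjusted p = 0.00150), as were B3galnt1 by 0.70 (edgeR adjusted p = 0.0205) and Alas1 by 0.54 (edgeR adjusted p = 0.0333). None of these differences was called without the block, where the edgeR adjusted p ranged from 0.284 for Exosc10 to 0.901 for Lcn2.

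Cells given alpha-synuclein without co-culture, donors at 300 min and acceptors at 300 min were each compared with the same untreated libraries, so their values are only set side by side. Tgm2 had log2 changes of 3.90 in alpha-synuclein-treated cells, 3.84 in donors and 2.04 in acceptors. For Lcn2 they were 8.15, 8.13 and 3.74, for Slc7a11 4.29, 3.89 and 2.52, and for Mcm3 -1.08, -0.95 and -0.75. The levels of Lcn2 given above were highest in experiment 4, in donors and in acceptors alike. For Clec5a the log2 changes were 1.03, 1.29 and 1.39. Wee1 was at 0.17, -1.32 and -1.34, with levels of 13.2 ± 2.93 CPM (mean ± SD, n = 4) in alpha-synuclein-treated cells and 4.75 ± 2.02 CPM (n = 4) in donors. Among NF-kB targets, 34 of 50 rose in alpha-synuclein-treated cells (8.95% of all genes rose there) and 2 of 50 in acceptors at 300 min (0.311%). In acceptors at 150 min, 17 of these 50 rose. Among mitosis genes, 30 of 32 fell in alpha-synuclein-treated cells (10.2% of all genes). In acceptors at 300 min 0 of 32 were called lower (0.311% of all genes), although 31 had negative log2 changes. In donors the median log2 changes were 1.06 for NF-kB targets and -1.74 for mitosis genes, against -0.04 over all tested genes. The difference between these comparisons was not tested.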

How the data were processed

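Whole-number counts per gene were deposited by the authors for all 54 libraries, together with normalized signal values per gene, also deposited by the authors, which were not used here. Libraries were made with a 3′ tag kit (QuantSeq 3′ FWD) and read as 50 bases, per the labels' protocols. STAR, Partek, DESeq2 and the build mm10 are named in the submitters' processing notes; versions and the use of strand in counting are not given in the sources used here. Coordinates and overlaps are from GENCODE vM21 (GRCm38), and promoters from RefSeq (GRCm38.p6).

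The comparison was fitted on 13169 of 16632 genes (filterByExpr by group, minimum count 10) with edgeR 4.0.16 in R 4.3.3: TMM scaling, a quasi-likelihood test over 52 units in 14 groups with the replicate number as a block, and Benjamini-Hochberg adjustment with a threshold of 0.05. Same-numbered untreated libraries, whose labels do not say whether they came from separate cultures, were summed; they differed by more than sampling noise (chi-square per degree of freedom 10.3 and 12.1, against 24.2 to 288 between other untreated libraries). The numbers pair the samples, because deviations of same-numbered acceptor and untreated units from their group means correlated across genes at r = 0.416 to 0.621 in the 3 pairs. CPM used TMM-scaled totals, and differences per experiment were log2(CPM + 1). Where a group held 3 counts or fewer, count ratios with 95% exact intervals are given, which cover counting error only; 3 counts correspond to 0.110 to 0.320 CPM in these libraries. The named genes were the 12 largest rises and 12 largest falls among called genes that moved one way in all 3 pairs, each called gene of 25 lists, up to 3 genes by p for lists with fewer calls, and called markers of 8 marker lists; some genes that this rule names are not reported here. The members and lists were chosen with earlier results of these data known. The script was tested on simulated data. Alternatives used limma 3.58.1 (voom), DESeq2 1.42.0, other scalings and filters, only the groups compared, no block, and leaving out each experiment.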

Additional observations from a re-analysis of the deposited data

Results flagged for a closer look

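In 6 of 97 named genes, 1 untreated unit stood far from the other 3; chance alone gives about 1 in 20 genes. The unit of experiment 2 was high for Cmklr1, a chemoattractant receptor, at 156 CPM, and for H2-D1, at 4114 CPM. The unit of experiment 3 was high for Tubb4a, at 8.91 CPM, and for Marco, at 19.1 CPM. The unit of experiment 4 was low for Cd14, at 409 CPM, and high for Tax1bp1, at 157 CPM.

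For 6 named genes, donors and acceptors at 300 min differed from each other by edgeR with the block. The log2 difference of donors minus acceptors was 1.80 for Tgm2, 4.40 for Lcn2, 2.91 for Marco and 1.35 for Chac1, all higher in donors. It was -0.46 for Mcm6 and -1.32 for Ccna2, both lower in donors.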

How the results depend on the processing

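Of the alternatives to the 82 calls against untreated cells, voom (98), DESeq2 size factors in edgeR (71), no filter on low counts (62), a minimum count of 50 (97), the first same-numbered untreated library only (84) and Rn45s left out (83) stayed within 1.5 times. DESeq2 called 183 (66 higher, 117 lower), of which 81 were among the 82, and keeping same-numbered libraries separate called 197. Leaving out 1 experiment gave 10 to 54 calls. The numbers pair the samples, and the replicate block decided the calls: without it edgeR called 0 against untreated cells, and a fit of only the 2 groups called 0 with the replicate block and 0 without. The cause was not tested; the biological coefficient of variation was 21.0% with the block and 38.1% without. All 82 genes kept their direction without the block and under DESeq2, voom and each left-out experiment, all of which reuse most or all of the same units.

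Against 150 min, where 1 gene was called, no replicate block gave 0, a fit of only the 2 groups gave 54 with the block and 0 without, DESeq2 gave 2, and leaving out 1 experiment gave 0 each time. Against 0 min, where 0 were called, only the 2 groups with the replicate block gave 84, DESeq2 gave 5, and leaving out 1 experiment gave 0 to 20. For donors against acceptors, where 182 were called, no replicate block gave 4, only the 2 groups gave 12 with the block and 3 without, DESeq2 gave 376, and leaving out 1 experiment gave 20 to 153. Log2 fold changes of 2 genes that were not called changed sign: Cmklr1, which ranged from -0.79 to 0.037 when 1 experiment was left out, and Marco, which went to -0.19 with no replicate block and -0.23 in only the 2 groups with no block. The cause was not tested. At this depth, changes in genes near the floor of 3 counts in both groups were not detectable.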
